A study of Mus musculus with 8 samples.

Results

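Collagen VI is built from several chains, each with its own gene, and cells meet it through surface receptors. The genes described here are 8 of the 31053 genes counted, taken by name, although earlier results of these data were known. They are the chain genes *Col6a1*, *Col6a2*, *Col6a3*, *Col6a5* and *Col6a6*, and the receptor genes *Antxr1*, *Antxr2* and *Cspg4*. They were followed in fibro/adipogenic progenitors (FAPs), the mesenchymal cells of the muscle interstitium that can become adipocytes or myofibroblasts. The cells came from hind limb muscles of *mdx* mice (C57BL/10ScSn-Dmdmdx/J, age 45 days), which carry a mutation in the dystrophin gene. They were sorted as CD45- CD31- ITGA7- SCA-1+ and divided by surface SCA-1 into the cell state SCA1-High-FAPs and the cell state SCA1-Low-FAPs, with 4 replicates each and both from 4 *mdx* mice. RNA of all 8 samples was taken after 5 days of culture in growth medium (GM), so that no uncultured cells, wild-type mice or adipogenic induction enter the comparison. SCA1-Low-FAPs served as the control of the study, and the question was how the transcriptomes of the cell states differ.

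Collagen VI forms beaded microfibrils around muscle fibres and interstitial cells. The alpha-1, alpha-2 and alpha-3 chains join in equal numbers into a monomer inside the cell, monomers pair into dimers and tetramers before secretion, and the alpha-4, alpha-5 and alpha-6 chains resemble alpha-3 and may take its place. Interstitial fibroblasts are the main source of collagen VI in skeletal muscle, and mutations in its chain genes cause Ullrich congenital muscular dystrophy and Bethlem myopathy. *Antxr1* (TEM8) and *Antxr2* (CMG2) encode the anthrax toxin receptors, of which CMG2 takes up collagen VI for degradation, and *Cspg4* encodes the proteoglycan NG2, a collagen VI receptor known from pericytes and other perivascular cells.

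The libraries were 3′ mRNA libraries, in which a transcript gives reads near its 3′ end whatever its length, so counts of different genes can be set side by side without dividing by length, although genes may still differ in how well their ends are captured. Levels are in CPM, the counts of a gene after TMM scaling to a common library size by edgeR. A log2 fold change sets SCA1-Low-FAPs over the other cell state, so a negative value means that SCA1-High-FAPs had more mRNA, and each adjusted *p*-value is from edgeR's quasi-likelihood test with Benjamini-Hochberg adjustment over the 10181 genes tested. A gene was called when its adjusted *p*-value was under 0.05 and its log2 fold change was larger than 0.5 in size. The samples held 1880561 to 3985656 counts on genes. A floor of 3 counts, which covers counting error only, equals 0.753 to 1.60 CPM. The FAP marker genes were present in all samples, with a sum over 7 genes of 7956 to 10595 CPM (SCA1-High-FAPs) and of 6873 to 10098 CPM (SCA1-Low-FAPs). Most of this sum was *Col1a1*, at means of 7559 and 6578 CPM, so it says little about the other markers. After the culture, the mRNA of *Ly6a*, which encodes SCA-1, did not follow the sort: SCA1-High-FAPs had 711 ± 184 CPM (SD, n = 4) and SCA1-Low-FAPs had 1087 ± 58.8 CPM, which were the higher of the levels (log2 fold change 0.61, adjusted *p* = 0.0341 by edgeR). Of the 7 marker genes, 2 were called higher in SCA1-Low-FAPs, *Ly6a* and *Thy1* (log2 fold change 0.67, adjusted *p* = 0.0105 by edgeR). The 1 called higher in SCA1-High-FAPs was *Dcn* (log2 fold change −2.08, adjusted *p* = 0.0167 by edgeR). The cell states below are those of the sort.

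Of the 8 genes, 6 had enough counts to be tested and 3 were called, while 7.68% of all tested genes were called. *Col6a1* and *Col6a2* were higher in SCA1-High-FAPs, as were 4.36% of tested genes. *Cspg4* was higher in SCA1-Low-FAPs, as were 3.32% of tested genes. *Col6a3*, *Antxr1* and *Antxr2* were not called, and *Col6a5* and *Col6a6* were too low to be tested. The median log2 fold change of the 6 was −0.41, against 0.0003 over all tested genes.

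**Figure D1:**
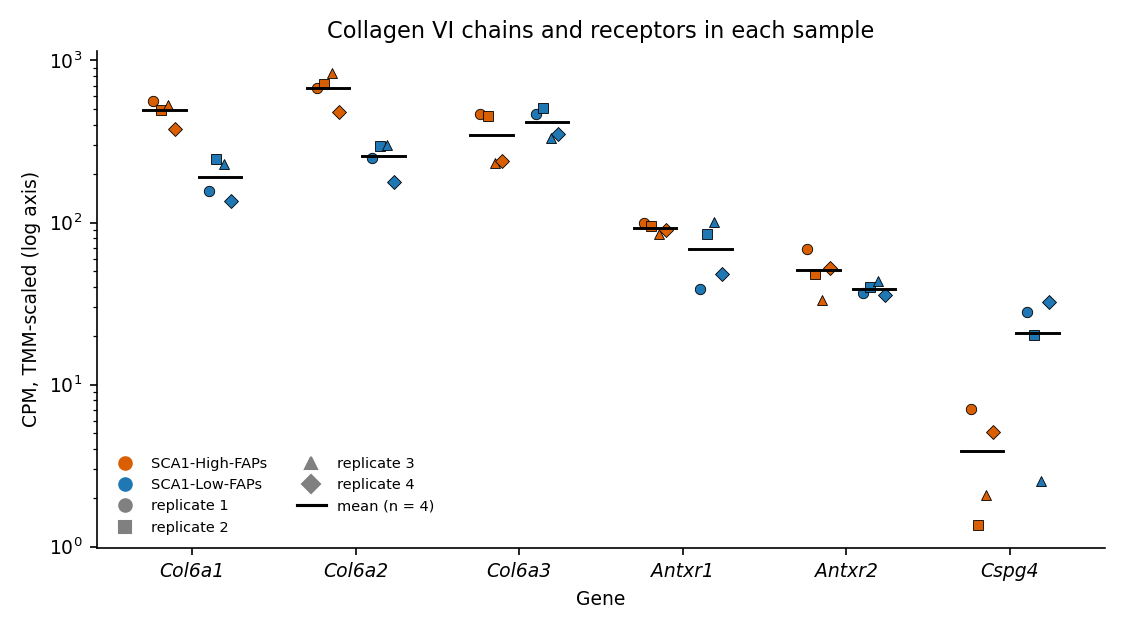
Level of each tested collagen VI chain and receptor gene in every sample, in CPM on a log axis, with SCA1-High-FAPs in orange, SCA1-Low-FAPs in blue, a marker shape for each replicate number and a black bar at the mean of 4. The orange and blue points do not overlap for *Col6a1* and *Col6a2*, they overlap for *Col6a3*, *Antxr1* and *Antxr2*, and for *Cspg4* replicate 3 of SCA1-Low-FAPs lies among the orange points at 2.54 CPM.

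*Col6a1* and *Col6a2* lie next to each other. In GENCODE M21 on GRCm38, *Col6a1* (ENSMUSG00000001119) is at chr10:76708792-76726168 and *Col6a2* (ENSMUSG00000020241) at chr10:76595762-76623630, both on the minus strand, with a gap of 85161 bases and 0 protein-coding genes between them. *Col6a3* (ENSMUSG00000048126) is on another chromosome, at chr1:90765923-90843971, also on the minus strand. Because the first pair moved together and *Col6a3* did not, the 250 bases before their RefSeq transcription starts (GRCm38.p6) are shown, read 5′ to 3′ along the minus strand. *Col6a2* has 2 such starts in RefSeq. Capitals mark matches to TGANTCA (the AP-1 motif) and to GGGCGG (the GC box), searched on both strands together with TATAAA and CCAAT.
*Col6a1*, chr10:76726045-76726294: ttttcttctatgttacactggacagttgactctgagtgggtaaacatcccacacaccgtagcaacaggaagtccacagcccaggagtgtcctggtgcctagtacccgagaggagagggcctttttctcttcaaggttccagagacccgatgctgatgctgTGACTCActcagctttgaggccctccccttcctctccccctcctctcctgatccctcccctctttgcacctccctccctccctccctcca
*Col6a2*, start 1, chr10:76623405-76623654: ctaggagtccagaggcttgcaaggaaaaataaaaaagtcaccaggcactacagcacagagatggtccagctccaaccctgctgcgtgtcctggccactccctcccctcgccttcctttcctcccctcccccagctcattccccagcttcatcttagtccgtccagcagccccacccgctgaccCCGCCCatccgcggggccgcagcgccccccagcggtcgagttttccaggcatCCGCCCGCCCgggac
*Col6a2*, start 2, chr10:76623631-76623880: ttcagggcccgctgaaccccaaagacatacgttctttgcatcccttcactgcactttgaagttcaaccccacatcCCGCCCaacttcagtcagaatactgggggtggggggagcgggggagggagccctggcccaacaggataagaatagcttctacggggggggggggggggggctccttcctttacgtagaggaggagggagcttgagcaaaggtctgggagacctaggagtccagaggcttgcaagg
*Col6a3*, chr1:90843972-90844221: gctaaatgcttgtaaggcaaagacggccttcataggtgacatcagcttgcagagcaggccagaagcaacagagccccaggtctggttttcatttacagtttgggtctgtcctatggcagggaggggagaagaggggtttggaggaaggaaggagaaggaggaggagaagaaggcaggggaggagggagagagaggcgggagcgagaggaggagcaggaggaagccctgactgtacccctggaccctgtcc

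The GENCODE models of *Col6a1* and *Col6a2* begin farther upstream than the RefSeq start of *Col6a1* and start 1 of *Col6a2*, inside the stretches printed. The *Col6a1* stretch held 1 match to TGANTCA and 0 to GGGCGG, and those of *Col6a2* held 3 and 1 matches to GGGCGG and 0 to TGANTCA, where the 3 include 2 that overlap. The TGANTCA match of *Col6a1* and the 3 GGGCGG matches of *Col6a2* start 1 lie downstream of the GENCODE starts, inside the GENCODE models. The *Col6a3* stretch held no match to any of the 4 motifs. Among 32851 RefSeq stretches of this length, 6.75% held TGANTCA, 32.7% held GGGCGG, 33.8% held CCAAT and 12.4% held TATAAA. The GC content was 56.0% before *Col6a1*, 64.4% and 59.2% before *Col6a2* and 57.2% before *Col6a3*, against a median of 52.4%. These matches describe the letters of the windows and show no binding.

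*Col6a1*, which encodes the alpha-1 chain, was at 564, 494, 534 and 376 CPM in replicates 1 to 4 of SCA1-High-FAPs. In SCA1-Low-FAPs it was at 157, 246, 230 and 135 CPM. Every SCA1-High-FAPs sample was above every SCA1-Low-FAPs sample, as happened in one direction or the other for 14.1% of tested genes. This gave a log2 fold change of −1.36 (SE 0.19, 95% interval −1.77 to −0.95, adjusted *p* = 0.000672 by edgeR), which is a level 2.57 times higher in SCA1-High-FAPs. Replicate 4 was the lowest sample of each cell state.

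*Col6a2*, which encodes the alpha-2 chain, was the most abundant chain mRNA in SCA1-High-FAPs. It was at 677, 712, 833 and 481 CPM there, whereas SCA1-Low-FAPs had 250, 297, 302 and 179 CPM. The cell states did not overlap, and replicate 4 was again the lowest of each. The fitted log2 fold change was −1.40 (SE 0.19, 95% interval −1.80 to −0.99, adjusted *p* = 0.000585 by edgeR), or 2.63-fold higher in SCA1-High-FAPs. Its means were 676 ± 146 CPM (SD, n = 4) and 257 ± 57.2 CPM.

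*Col6a3* encodes the alpha-3 chain, whose C-terminal end gives rise to the fragment endotrophin. Its levels were 469, 453, 234 and 238 CPM among SCA1-High-FAPs and 468, 508, 334 and 354 CPM among SCA1-Low-FAPs. The cell states overlapped, and within each of them replicates 1 and 2 were above replicates 3 and 4. The means were 348 ± 130 CPM (SD, n = 4) and 416 ± 85.4 CPM. The log2 fold change of 0.26 (SE 0.24, adjusted *p* = 0.603 by edgeR) did not pass, and its 95% interval from −0.26 to 0.77 holds no fall of the size seen for *Col6a1* and *Col6a2*. In SCA1-Low-FAPs *Col6a3* had the highest mean of the chains, and it was the highest chain in all 4 samples.

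The balance between chains was taken as a ratio of counts within each sample, which no scaling between libraries can move. *Col6a1* stood at 0.832, 0.694, 0.642 and 0.782 counts per count of *Col6a2* in SCA1-High-FAPs. The same ratio was 0.627, 0.828, 0.762 and 0.755 in SCA1-Low-FAPs. The ranges almost coincide, and the log2 ratios differed by 0.01 (two-sided exact permutation test over 70 assignments, p = 1, adjusted p = 1 over 6 tests). A fit of all genes with every library scaled to its *Col6a2* count, added after the data were seen, puts the change of *Col6a1* relative to *Col6a2* at 0.01 with a 95% interval from −0.63 to 0.65. That interval rests on a spread pooled over all genes under this scaling, not on the spread of the ratio. The SD of the log2 ratio itself was 0.17 in each cell state (n = 4).

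The ratio of *Col6a3* to *Col6a1* was 0.832, 0.916, 0.438 and 0.634 in SCA1-High-FAPs and 2.99, 2.07, 1.45 and 2.62 in SCA1-Low-FAPs. It was below 1 in every SCA1-High-FAPs sample and above 1 in every SCA1-Low-FAPs sample. The mean log2 ratio went from −0.56 ± 0.48 (SD, n = 4) to 1.14 ± 0.46, a 3.24-fold difference (two-sided exact permutation test, p = 0.0286, adjusted p = 0.0571 over 6 tests). The unadjusted value is the smallest that 70 assignments allow, and with 6 tests it does not pass 0.05 once adjusted. Against *Col6a2*, the ratio of *Col6a3* was 0.693, 0.636, 0.281 and 0.496 in SCA1-High-FAPs and 1.87, 1.71, 1.10 and 1.98 in SCA1-Low-FAPs. These ranges do not overlap either, with a 3.27-fold difference (exact permutation test, p = 0.0286, adjusted p = 0.0571). In the fits scaled to a chain, *Col6a3* rose by 1.69 on the log2 scale relative to *Col6a1* and by 1.66 relative to *Col6a2*. There the noise of 1 chain's count enters every gene alike. The *p*-values of these fits therefore do not measure the spread between samples, and only the sizes are given. In those fits 82.3% and 81.5% of all tested genes were called, so that *Col6a3* shares its change relative to these chains with most genes.

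**Figure D2:**
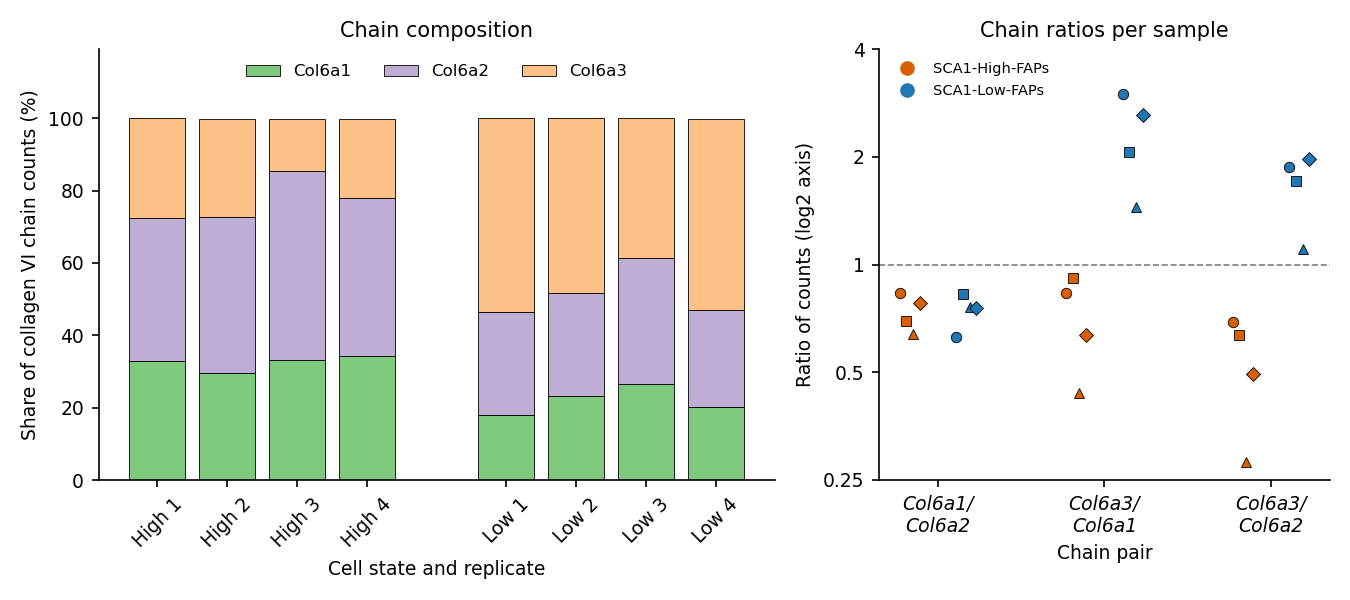
Left, share of each sample's collagen VI chain counts that fell on *Col6a1*, *Col6a2* and *Col6a3*, in percent, where the small remainder is *Col6a5* and *Col6a6*. Right, ratios of counts between chains on a log2 axis, with a marker shape for each replicate number as in the plot of levels by sample and a dashed line at 1. *Col6a3* held 14.6% to 27.4% of the counts in SCA1-High-FAPs and 38.5% to 53.5% in SCA1-Low-FAPs, while *Col6a1*/*Col6a2* covered the same range in both.

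As a share of all collagen VI chain counts, *Col6a3* held 27.4%, 27.3%, 14.6% and 21.7% in SCA1-High-FAPs. In SCA1-Low-FAPs it held 53.5%, 48.4%, 38.5% and 52.9%. Replicate 3 had the smallest share of *Col6a3* in each cell state. All chains together summed to 1711, 1661, 1604 and 1098 CPM in replicates 1 to 4 of SCA1-High-FAPs, whereas the sums of SCA1-Low-FAPs were 875, 1050, 866 and 668 CPM, where replicate 4 of SCA1-High-FAPs lay just above replicate 2 of SCA1-Low-FAPs. The means of 1519 ± 284 CPM (SD, n = 4) and 865 ± 156 CPM are 1.76-fold apart (exact permutation test, p = 0.0286, adjusted p = 0.0571 over 6 tests). The unadjusted value rose to 0.0571 when any of the 4 SCA1-Low-FAPs samples was left out. Collagen VI made up 5.58%, 5.35%, 6.89% and 3.41% of the counts of all collagen chain genes in SCA1-High-FAPs, against 4.49%, 4.10%, 3.01% and 4.13% in SCA1-Low-FAPs. This share overlapped between the cell states (exact permutation test, p = 0.114, adjusted p = 0.171), and without replicate 4 of SCA1-High-FAPs the unadjusted value was 0.0286.

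The chains that resemble alpha-3 were at or near the limit of detection. *Col6a6* (ENSMUSG00000043719, chr9:105687809-105828160) had 3, 5, 6 and 5 counts in SCA1-High-FAPs and 0, 0, 0 and 4 in SCA1-Low-FAPs. Its 19 counts against 4 give a ratio of 5.56 per library size, with an exact 95% interval from 1.85 to 22.5 that covers counting error only. *Col6a5* (ENSMUSG00000091345, chr9:105856078-105960643) had 1, 0, 0 and 4 counts in SCA1-High-FAPs and 0 in every SCA1-Low-FAPs sample. Its 5 counts against 0, of which 4 came from 1 library, give a ratio with an exact lower 95% limit of 1.07, again for counting error only. *Col6a4* (ENSMUSG00000032572), the remaining chain gene of the mouse, which lies beside both on chromosome 9, had 0 counts in all 8 samples. At this depth the level of these 3 genes in SCA1-Low-FAPs was not detectable in most samples, and the filter left them untested.

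*Antxr1* (ENSMUSG00000033420, chr6:87133853-87335821), the gene of TEM8, was the most abundant of the receptor mRNAs. SCA1-High-FAPs had 99.3, 95.4, 84.8 and 89.8 CPM, and SCA1-Low-FAPs had 38.7, 84.9, 100.9 and 48.3 CPM. The samples of SCA1-High-FAPs lay close together, with a coefficient of variation of 6.91%, whereas SCA1-Low-FAPs varied by 43.3%, with replicates 1 and 4 below and replicates 2 and 3 within or above the range of SCA1-High-FAPs. Between the cell states it differed by −0.44 on the log2 scale (SE 0.25, 95% interval −0.96 to 0.09, adjusted *p* = 0.343 by edgeR).

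*Antxr2* (ENSMUSG00000029338, chr5:97882783-98031043), the gene of CMG2, was at 68.3, 48.4, 33.4 and 52.4 CPM among SCA1-High-FAPs and at 36.7, 39.7, 43.8 and 35.6 CPM among SCA1-Low-FAPs. Here the spread was in SCA1-High-FAPs, whose replicate 3 was the lowest of all 8 samples. Its log2 fold change was −0.38 (SE 0.23, 95% interval −0.87 to 0.12, adjusted *p* = 0.393 by edgeR). There were 1.46, 1.97, 2.54 and 1.71 counts of *Antxr1* per count of *Antxr2* in SCA1-High-FAPs and 1.05, 2.14, 2.30 and 1.36 in SCA1-Low-FAPs. The ratio was above 1 in all 8 samples, and its ranges overlapped (difference of log2 ratios −0.21, exact permutation test, p = 0.543, adjusted p = 0.651 over 6 tests).

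*Cspg4* (ENSMUSG00000032911, chr9:56865033-56899870, plus strand), the gene of NG2, had 15, 3, 5 and 14 counts in SCA1-High-FAPs and 58, 37, 8 and 123 counts in SCA1-Low-FAPs. In CPM these were 7.06, 1.36, 2.09 and 5.13 against 28.0, 20.1, 2.54 and 32.5. Replicates 1, 2 and 4 of SCA1-Low-FAPs lay above all SCA1-High-FAPs samples, and replicate 3 lay below replicates 1 and 4 of SCA1-High-FAPs. In the fit of all 8 samples, the log2 fold change was 2.40 (SE 0.67, 95% interval 0.97 to 3.83, adjusted *p* = 0.0415 by edgeR), or 5.26-fold more in SCA1-Low-FAPs. With each sample left out in turn, the call stood in 2 of 8 fits, namely without replicate 1 of SCA1-High-FAPs (adjusted *p* = 0.0457 by edgeR) and without replicate 3 of SCA1-Low-FAPs (0.00141). It was lost without any of the other 6 samples, which are replicates 2, 3 and 4 of SCA1-High-FAPs and 1, 2 and 4 of SCA1-Low-FAPs, with log2 fold changes of 2.07 to 2.57 and adjusted *p*-values of 0.0865 to 0.126 by edgeR. Between 3.96% and 9.85% of all genes tested were called in these 8 fits.

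NG2 is also carried by pericytes, so their markers are given beside it. The 7 pericyte and mural marker genes summed to 23.1 to 44.7 CPM per sample of SCA1-High-FAPs and 22.4 to 49.5 CPM per sample of SCA1-Low-FAPs. Of the 2 that could be tested, *Myh11*, a smooth muscle myosin, was higher in SCA1-Low-FAPs (log2 fold change 1.85, adjusted *p* = 0.0232 by edgeR) and *Notch3* was higher in SCA1-High-FAPs (log2 fold change −1.54, adjusted *p* = 0.0487). Among the markers too low to be tested, *Abcc9* (means 5.72 and 0.861 CPM), *Mcam* (5.58 and 2.47), *Rgs5* (3.28 and 1.91) and *Des* (0.967 and 0.747) had the higher mean in SCA1-High-FAPs. *Kcnj8* (0.367 and 0.725) had it in SCA1-Low-FAPs. The ranges of all of these overlapped between the cell states. The part of pericytes and mural cells in the level of *Cspg4* was not tested.

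**Figure D3:**
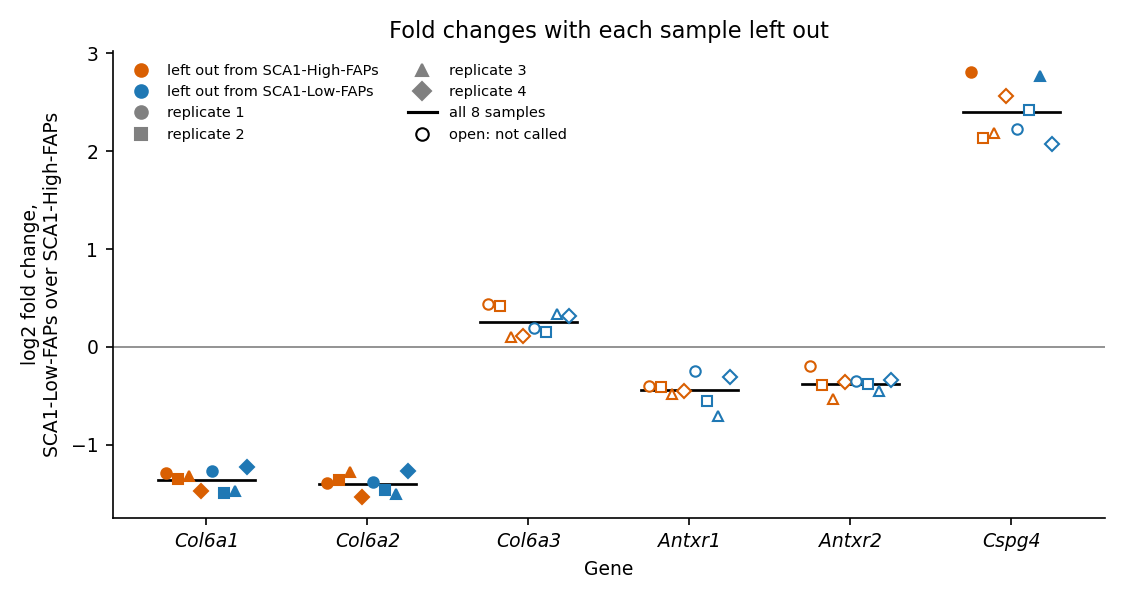
Log2 fold change (SCA1-Low-FAPs over the other cell state) for each tested gene with each of the 8 samples left out in turn (orange where the sample left out was from SCA1-High-FAPs, blue where it was from SCA1-Low-FAPs, marker shape for its replicate number), beside the value with all 8 samples as a black bar. *Col6a1* stayed between −1.49 and −1.23 and *Col6a2* between −1.53 and −1.26 with filled markers throughout, and *Cspg4* ranged from 2.07 to 2.81 with 2 filled markers.

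Leaving out samples did not change the calls of *Col6a1* and *Col6a2*, whose adjusted *p*-values were at most 0.00673 and 0.00508 by edgeR. *Col6a3* ranged from 0.10 to 0.44, *Antxr1* from −0.71 to −0.24 and *Antxr2* from −0.53 to −0.20, and none of these genes was called in any of the 8 fits. The *Antxr1* value nearest to 0 was that without replicate 1 of SCA1-Low-FAPs, its lowest sample.

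Across the 8 samples, log2 CPM of *Col6a1* and *Col6a2* had a Pearson's r of 0.981, which was 0.881 after subtracting the mean of each cell state. For *Col6a1* and *Col6a3* the values were −0.220 and 0.329, and for *Antxr1* and *Antxr2* they were 0.570 and 0.394. These are descriptions of 8 samples that share library scaling. The tested genes whose levels were most like the sum of *Col6a1* and *Col6a2* were *Tent5a* (r = 0.994), *Trf* (0.993), *Enpp2* (0.992), *Reep6* (0.991) and *Samhd1* (0.989). With the mean of each cell state removed they were *Ap3m2* (0.990), *Dot1l* (0.968), *Enpp2* (0.967), *Tent5a* (0.966) and *Hs6st2* (0.966). *Tent5a* and *Enpp2*, the gene of the secreted enzyme autotaxin, stood in both. Both rankings take the top of all tested genes in the same 8 samples, so standing in both is not separate evidence.

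Collagen VI was then set beside the other collagens. Of 44 collagen chain genes in the counts, 25 were tested, and 22 of these encode chains other than collagen VI. Of the 22, 5 were called higher in SCA1-High-FAPs and 3 higher in SCA1-Low-FAPs. The median log2 fold change of all 25 was −0.26. *Col1a1* and *Col1a2*, which encode the chains of collagen I, had log2 fold changes of −0.20 (adjusted *p* = 0.587 by edgeR) and −0.36 (adjusted *p* = 0.394) and were not called. When *Col1a1*, *Col1a2* and *Col3a1* were taken out of the total, the share of collagen VI among collagen counts was 9.10 percentage points lower in SCA1-Low-FAPs (exact permutation test, p = 0.0286). That value is the smallest that 70 assignments allow and was not adjusted, and the share of all collagen counts did not pass.

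**Figure D4:**
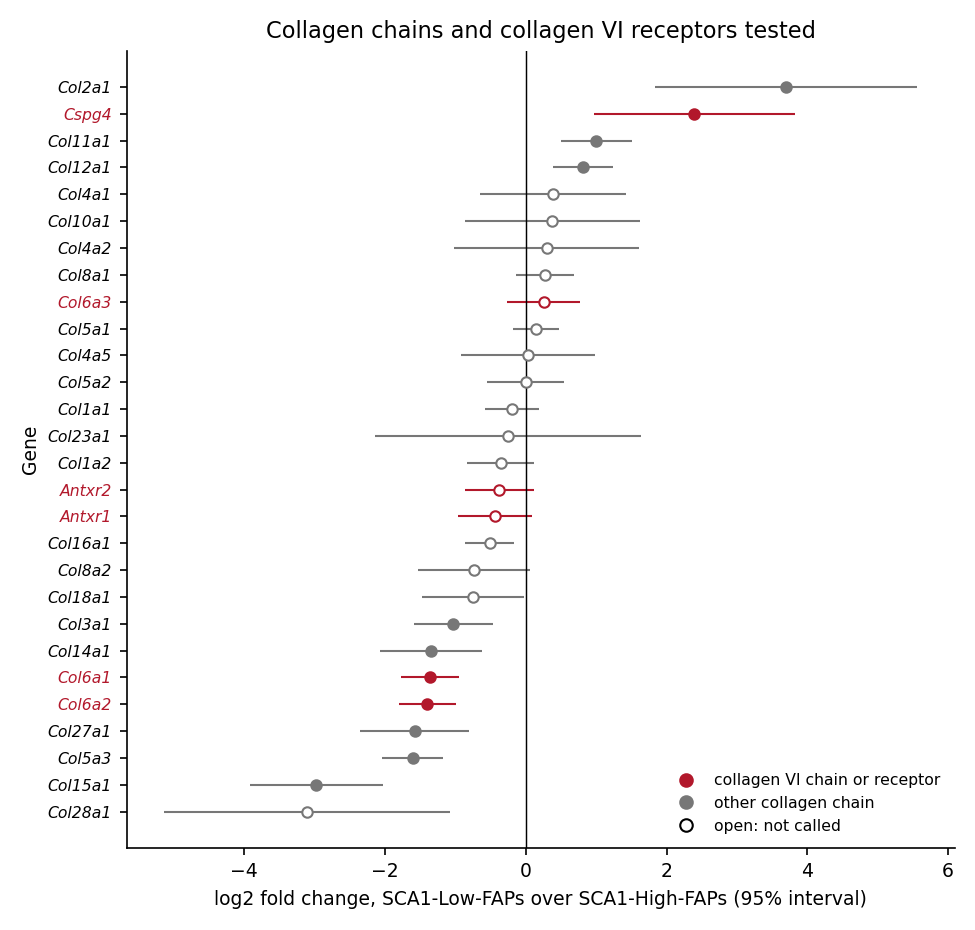
Log2 fold change (SCA1-Low-FAPs over the other cell state) with its 95% interval for the 6 tested collagen VI chain and receptor genes (red) and the 22 other collagen chain genes tested (grey), sorted by value, with filled markers for genes that were called. *Col6a1* and *Col6a2* sit side by side at −1.36 and −1.40 among the lower values, *Col6a3* at 0.26 has an interval that includes 0, and *Cspg4* at 2.40 is the second highest.

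The other receptors that can bind collagen were listed as 13 genes, of which 8 were tested, 1 was higher in SCA1-High-FAPs and 1 higher in SCA1-Low-FAPs, with a median log2 fold change of 0.13. *Itga1*, the alpha-1 subunit of a collagen-binding integrin, was at 514 to 666 CPM among SCA1-High-FAPs and at 154 to 293 CPM among SCA1-Low-FAPs (log2 fold change −1.38, SE 0.19, adjusted *p* = 0.000529 by edgeR), a difference of the size seen for *Col6a1*. *Itga5*, the alpha subunit of the fibronectin receptor, was higher in SCA1-Low-FAPs (log2 fold change 1.39, adjusted *p* = 0.0116). The partner subunit *Itgb1* (log2 fold change 0.12, adjusted *p* = 0.684) and the collagen-activated kinase *Ddr2* (log2 fold change −0.05, adjusted *p* = 0.898) were not called.

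Matrix proteins that bind collagen VI or lie with it in the matrix were listed as 21 genes, of which 16 were tested, 6 were higher in SCA1-High-FAPs and 1 higher in SCA1-Low-FAPs. Their median log2 fold change was −0.34. *Dcn*, which encodes the proteoglycan decorin, averaged 590 ± 308 CPM (SD, n = 4) among SCA1-High-FAPs and 140 ± 50.8 CPM among SCA1-Low-FAPs (log2 fold change −2.08, adjusted *p* = 0.0167 by edgeR). The others named are *Matn2* of a family of adaptor proteins (log2 fold change −1.61, adjusted *p* = 0.0434), *Col14a1* (−1.35, 0.0328), the microfibril gene *Mfap2* (−1.23, 0.0129) and the fibronectin gene *Fn1* (−0.64, 0.0165). *Bgn*, the gene of biglycan, a close relative of decorin, was at 2735 ± 415 and 2798 ± 336 CPM and was not called (log2 fold change 0.03, adjusted *p* = 0.937 by edgeR). The gene higher in SCA1-Low-FAPs was *Col2a1*, known from cartilage, at 0 to 2.92 CPM among SCA1-High-FAPs and 5.71 to 12.5 CPM among SCA1-Low-FAPs (log2 fold change 3.70, adjusted *p* = 0.0156).

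Genes for folding, modifying and exporting collagen chains did not pass in either direction, with 0 of 21 tested called by edgeR and a median log2 fold change of 0.03. Among 11 genes for processing and turnover, 8 were tested and 1 was called, *Mmp11*, a metalloproteinase known to cut the alpha-3 chain of collagen VI (log2 fold change −0.89, adjusted *p* = 0.0262 by edgeR). *Mmp14*, a membrane-bound metalloproteinase, was not called (log2 fold change 0.41, adjusted *p* = 0.201), and the median of the 8 was −0.30. Among 9 partners of the anthrax toxin receptors and NG2, 8 were tested and 1 was called, the Wnt co-receptor *Lrp6*, higher in SCA1-High-FAPs (log2 fold change −0.85, adjusted *p* = 0.0131). *Pdgfrb*, a receptor that NG2 can accompany, was not called (log2 fold change 0.37, adjusted *p* = 0.495), and the median of the 8 was −0.12.

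Fewer cells of a type and less RNA per cell cannot be told apart in these bulk samples. The adipocyte markers moved with the cell states: the 6 genes summed to 5372, 1932, 2462 and 1025 CPM in replicates 1 to 4 of SCA1-High-FAPs and to 189, 229, 623 and 108.5 CPM in those of SCA1-Low-FAPs. Of the 4 tested, *Adipoq* was called (log2 fold change −4.72, adjusted *p* = 0.0352 by edgeR), and *Lep* was at 0 in every sample. Replicate 4, which had the lowest *Col6a1* and *Col6a2* of each cell state, also had its lowest sum of adipocyte markers. The highest sums were in replicate 1 of SCA1-High-FAPs and replicate 3 of SCA1-Low-FAPs. The former had the highest *Col6a1* of its cell state but not the highest *Col6a2*. The latter had the highest *Col6a2* but not the highest *Col6a1*. The part of fat-forming cells in the levels of collagen VI was not tested. The 3 tenocyte markers summed to 16.3 to 47.9 CPM among SCA1-High-FAPs and 10.0 to 18.7 CPM among SCA1-Low-FAPs. Of these, *Tnmd*, at means of 24.0 and 8.20 CPM, could be tested and was not called (adjusted *p* = 0.053 by edgeR). *Scx* and *Mkx* went the other way at low levels. *Scx* was at 0 in every SCA1-High-FAPs sample and at 0.792 to 8.22 CPM among SCA1-Low-FAPs, and *Mkx* was at means of 1.18 and 2.80 CPM. *S100b*, which Schwann cells express, was at 5.50 to 16.3 CPM against 5.45 to 8.22 CPM and was not called (log2 fold change −0.86, adjusted *p* = 0.28 by edgeR). *Sox10*, another Schwann cell marker, had 2 counts over all 8 samples. The part of such cells was not tested either. The markers of leucocytes (*Itgam* and *Adgre1* at 0), endothelial cells and muscle cells (*Pax7*, *Myf5*, *Myod1* and *Myog* at 0) summed to at most 10.9 CPM per list in any sample.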

How the data were processed

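Total RNA of 8 FAP samples, 4 per cell state as labelled, was sequenced as 3′ mRNA libraries. The authors trimmed the reads, aligned them with STAR (2.6.0a, per the submitters' processing notes) to mm10 and assigned them to Ensembl genes with htseq-count, and the deposited values are raw counts per gene without normalisation. The strand setting was not given in the sources used here, and PCR copies cannot be told apart. Reads that align to several places were given to no gene, which can lower chains with similar copies. The tallies of reads outside genes were left out of library sizes. Among reads on genes, on no feature or ambiguous between genes, 13.3% to 16.4% fell on no feature. Reads that align to several places are not in that total. All 31053 genes were read, and 31011 were matched by identifier to GENCODE M21 (GRCm38) for names and positions. Of the annotated genes that overlap a chain or receptor gene, 2 were in the counts, both at 0 in all samples, and the others were not analysed here. RefSeq upstream sequences (GRCm38.p6) were matched by symbol for all members except *Antxr1*.

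Counts were compared with edgeR 4.0.16 under R 4.3.3 (TMM, robust quasi-likelihood test, filterByExpr with at least 10 counts in enough samples and 15 in total, Benjamini-Hochberg adjustment), which left 10181 of 15873 genes with a count. Ratios were taken on raw counts with a pseudocount of 0.5 on the log scale only, and tested over all label assignments in Python 3.11.15. SciPy 1.17.1 gave the exact intervals of *Col6a5* and *Col6a6*. The labels give no day or batch of preparation. Every pair of libraries of a group differed by more than sampling noise, so none was counted as 1 sample. The *p*-values rest on the spread between the 4 samples of each state, which edgeR moderates with the spread of the other tested genes. Alternatives were DESeq2 1.42.0, RLE factors, other filters, an adjusted *p*-value of 0.01, the replicate number as a block and leaving out each sample. The test was tried on simulated data first.

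The members, the gene lists and the rule for naming genes were chosen with earlier results of these data known. The rule names all members, genes of each list that were called (up to 5 per direction, by size), a few fixed genes such as *Itgb1* and *Bgn*, and the 5 genes most like collagen VI. Some marker genes were left out of the lists and are not reported here. *Col1a1* and *Col1a2* were named after their values were seen.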

Additional observations from a re-analysis of the deposited data

Results flagged for a closer look

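In 27 groups of 4 values (members, ratios and sums by cell state), 1 held a sample far from its others. This was *Col6a6* in replicate 4 of SCA1-Low-FAPs, at 1.06 CPM from 4 counts, where the other 3 samples of its cell state were at 0. That sample was also the most deeply sequenced, with 3985656 counts. With 3 samples at 0, any count in the fourth sets it apart.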

How the results depend on the processing

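Of 190 alternatives over 15 results, 169 kept the direction and the side of the threshold, or stayed within 1.5 times a count. *Col6a1* and *Col6a2* were called under every alternative run. The log2 fold change of *Cspg4*, 2.40, was not called at an adjusted *p*-value of 0.01, was removed by a filter of 10 counts in every sample, and ranged from 2.07 to 2.81 with samples left out. The number of genes called, 782, fell to 307 at 0.01 and ranged from 410 to 1017 with samples left out, which also tests other genes. DESeq2 gave 1056 and no filter gave 1052. With samples left out, the difference in log2 *Col6a1*/*Col6a2* ranged from −0.054 to 0.089 and that in log2 *Antxr1*/*Antxr2* from −0.37 to 0.0026, with 7 of its 8 values below 0, the difference in summed collagen VI from −794 to −588 CPM, and that in its share of collagen counts from −2.01 to −0.85 percentage points (−9.10 without *Col1a1*, *Col1a2* and *Col3a1*). With 3 samples against 4, the exact test has few assignments, and the cause of the other changes was not tested.

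Same-numbered samples of the cell states did not deviate together (r −0.0502 to 0.00673 across genes), and no label ties a number to a mouse. With the replicate number as a block, edgeR called 697 genes, 619 of them among the 782, and the same 3 members (*Col6a1*, *Col6a2* and *Cspg4*). Depth limits *Col6a5* and *Col6a6*, which had at most 6 counts in any sample.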
